A study of Mus musculus with 6 samples.

Results

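Chaperones and proteasome subunits, the proteins that fold and degrade other proteins, were examined in the embryonic neocortex of null mutant mice described as synaptically silent, relative to wild-type neocortex. The members were chosen by gene symbol: the heat shock protein families Hspa, Hspb, Hspd, Hspe, Hsph and Hsp90, the Dnaj co-chaperones, the cytosolic chaperonin subunits Cct2 to Cct8 with Tcp1, and the proteasome genes Psma to Psme. This gave 78 probes for 76 genes, of 6269 probes for 6041 genes with a single symbol in the value table. Of these probes 45 belong to chaperones, 32 to proteasome subunits and activators, and 1 to Psmc3ip, which the symbol rule took in although its product is a partner of meiotic recombination and not a subunit.

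Each of 6 arrays with 2 colours held neocortex RNA of 1 null mutant embryo of embryonic day 14 on a C57BL/6 background, hybridised against a pool of neocortex RNA from 6 wild-type animals of the same background and day. Cy3 marked the mutant RNA on the first 3 replicates, and cy5 marked it on replicates 4 to 6. The pool counts as 1 control sample, so the ratio was tested against 0 and the spread between wild-type animals is not in the test. The labels call the mutants biological replicates, and they do not give the sex of the embryos. In bulk tissue, fewer cells of a type and less RNA per cell cannot be told apart.

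Molecular chaperones bind unfolded protein and release it in a folded or transferable state. Hsp70 proteins do so in cycles of ATP hydrolysis that Hsp40 (DnaJ) proteins start, Hsp110 proteins reset the cycle by exchanging nucleotide, Hsp60 and Hsp10 form the folding chamber of mitochondria, and the CCT ring folds actin and tubulin, which growing neurons need in quantity. The proteasome has a barrel, the 20S core, built of alpha rings (Psma) and beta rings (Psmb, which hold the proteolytic sites), and a 19S cap whose ATPases (Psmc) unfold the substrate and whose other subunits (Psmd) bind and strip ubiquitin. Psme genes encode activators that can replace that cap. Heat shock factors drive chaperone genes through repeated heat shock elements, and Nfe2l1 is the factor known to raise proteasome genes together when the proteasome is inhibited.

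The promoters of members are shown first because some of them share a heat shock element while their ratios differ. Promoter windows from RefSeq (GRCm38.p6), from 250 bases before to 50 bases after the start, matched 65 of the 76 genes. A heat shock element of 3 units, TTC, GAA and TTC with NN between neighbours, was searched on both strands and found in 6 of 53 chaperone windows (11.3%), those of Hspd1, Hspe1, Hsph1 and Dnajb6, in 0 of 28 proteasome windows, and in 0.603% of all 32851 windows. A gene with several windows can count more than once in these shares. By gene it was 4 of 38 chaperone genes, and 179 of 27025 genes over all windows. Hspd1 and Hspe1, the genes of Hsp60 and Hsp10, lie head to head on chromosome 1, so that both contain the same element at chr1:55088059-55088076. The 160 bases before the start are printed 5′ to 3′ on the strand of each gene, with the match in capitals, for Hspd1 (chr1:55087933-55088092, minus strand), Hspe1 (chr1:55087988-55088147, plus strand) and Dnajb6 (chr5:29735738-29735897, plus strand).
Hspd1: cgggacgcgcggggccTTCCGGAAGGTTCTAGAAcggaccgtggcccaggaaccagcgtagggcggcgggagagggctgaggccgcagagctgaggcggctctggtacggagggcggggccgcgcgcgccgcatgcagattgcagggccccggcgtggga
Hspe1: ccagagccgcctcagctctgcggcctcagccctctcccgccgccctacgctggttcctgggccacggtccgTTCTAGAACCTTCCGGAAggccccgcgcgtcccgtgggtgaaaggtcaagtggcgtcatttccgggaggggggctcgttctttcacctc
Dnajb6: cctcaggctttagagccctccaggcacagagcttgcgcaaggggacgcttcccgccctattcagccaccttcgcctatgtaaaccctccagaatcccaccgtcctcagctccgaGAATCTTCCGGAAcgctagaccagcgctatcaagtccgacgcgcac
In Hspd1 and Hspe1 the capitals cover 2 overlapping matches.

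Proteasome promoters were searched in the same way. The antioxidant-type element TGACNNNGC, on either strand, was in 2 of 28 proteasome windows (7.14%), those of Psmb5 and Psmb6, against 12.4% of all windows, and the CCAAT box was in 13 of 28 (46.4%), against 37.4% of all windows. The 160 bases before the start are shown for Psmb5 (chr14:54617996-54618155, minus strand), whose capitals mark the antioxidant-type match, and for Psma1 (chr7:114276117-114276276, minus strand), whose capitals mark 2 CCAAT boxes, 1 on each strand. Both genes followed the shared course of the subunits described below.
Psmb5: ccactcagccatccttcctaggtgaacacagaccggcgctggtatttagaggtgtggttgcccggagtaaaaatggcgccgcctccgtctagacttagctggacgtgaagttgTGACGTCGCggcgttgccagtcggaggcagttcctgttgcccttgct
Psma1: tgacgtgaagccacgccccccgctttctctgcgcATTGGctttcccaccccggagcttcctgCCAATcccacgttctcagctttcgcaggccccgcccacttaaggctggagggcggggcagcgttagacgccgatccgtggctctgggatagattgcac
A match of letters describes the window and does not show that a factor binds there.

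The deposited values are log ratios, taken here as log2 and read as mutant over pool on every array, so values above 0 mean that the mutant had more of an RNA. Neither the base nor the direction is given in the sources used here. Estimates of the named genes and gene lists are therefore also given under the other reading, with the signs of replicates 1 to 3 turned. Values of single arrays are printed as deposited throughout, so those of replicates 1 to 3 would change sign under that reading. The main reading was chosen in earlier work on these data after the values of Xist, an RNA of the inactive X chromosome, had been seen on replicates 5 and 6. Replicates 5 and 6 have the same sign under both readings, so their values cannot choose between the readings. Turning replicates 4 to 6, or all 6 arrays, would give the same estimates as the 2 readings used here, with every sign reversed. The arrays held 4396 to 5678 values each. Replicates 3 and 4 stand apart: they had the largest standard deviations over all probes, 1.09 and 0.62, against 0.35 to 0.52 on the others, and correlated with each other (Pearson's r = 0.59 over 3875 probes) although the mutant carried opposite dyes. Under the other reading that correlation would change sign. Among replicates 1, 2, 5 and 6, r was 0.36 for 1 with 2 and 0.21 for 5 with 6, which share a dye orientation. Across orientations it was between -0.074 and 0.055. Spearman's correlations were 0.53 and 0.35 within an orientation and -0.27 to -0.07 across, so these arrays did not agree between orientations as deposited. Under the other reading the Spearman values across orientations would change sign as well and be positive. Replicate 3 had r = -0.20 with replicate 1 and -0.19 with replicate 2. Replicate 4 had r = -0.26 with replicate 5 and -0.08 with replicate 6. Those pairs share an orientation, so either reading leaves their values as they are. Because every array shares the same pool, these correlations are only a description. Estimates are also given without replicates 3 and 4 where they could be fitted. Of 78 member probes, 2 (Hspb3 and Hspb7) had no value on any array, 6 (Psmb2, Psmb10, Cct2, Dnajb7, Dnajb8 and Dnajb12) had too few values for a fit, and 70 were fitted. A value on all 6 arrays was present for 57 of them. Hspa5, Hsp90aa1 and Hsp90ab1 had no probe among the members and so were not analysed here.

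No member differed from the pool past the threshold. In limma, 0 of 70 member probes had an adjusted p under 0.05, where 0% of the 4958 probes tested did. At an unadjusted p under 0.05 there were 3 members, Psmd13, Hspe1 and Dnajb5, that is 4.29% of 70, where 1.77% of all probes passed that mark. Negative estimates were found for 55 of 70 members, 29 of them among the 30 proteasome probes and 25 among the 39 chaperone probes, where 56.7% of all probes had one. The median estimate was -0.18 for the proteasome and -0.10 for the chaperones, beside -0.03 over all probes. Both medians rest on replicates 3 and 4: without them the proteasome stood at 0.03 and the chaperones at 0.06, beside 0.04 over all probes. There 23 of 69 member estimates were below 0, where 37.4% of all probes had one below 0. With the signs of replicates 1 to 3 turned, 40 of 70 were below 0, where 47% of all probes were. The proteasome median was then 0.02, with 15 of 30 estimates below 0, and the chaperone median was -0.04, with 25 of 39.

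**Figure D1:**
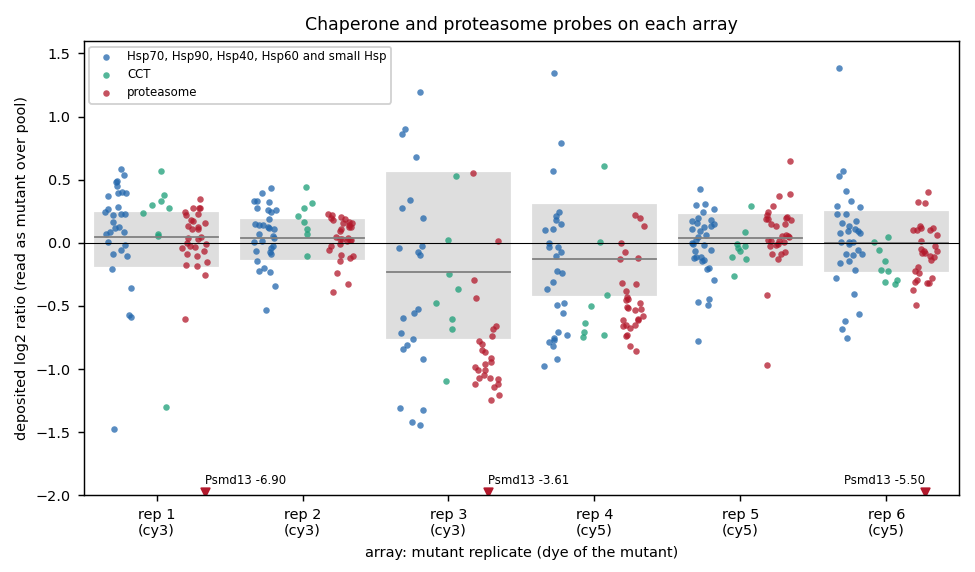
Deposited log2 ratio of each member probe on each array, with the dye of the mutant under the replicate number. Grey boxes span the lower to the upper quartile of all probes and grey lines are their medians. Triangles mark Psmd13 below the axis, and the proteasome points have a median of -0.96 on replicate 3 and -0.51 on replicate 4.

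As deposited, most subunits of the 20S core were below 0 on both replicate 3 and replicate 4. On replicate 3, 14 of 15 core probes were below 0 with a median of -0.86, where 58.2% of all probes were below 0 and their median was -0.23. On replicate 4, 17 of 17 were, with a median of -0.53, where 59.7% of all probes were and their median was -0.13. Under the other reading the core stood on opposite sides of 0, at 0.86 on replicate 3 and -0.53 on replicate 4. On replicates 1, 2, 5 and 6 the core medians were 0.03, 0.11, 0.05 and -0.02. The interquartile range among core probes was 0.26, 0.21, 0.31, 0.17, 0.18 and 0.31 on replicates 1 to 6. Over all probes it was 0.42, 0.31, 1.31, 0.72, 0.39 and 0.47. The core was thus about as narrow on every array, and it was the spread of all probes that was wider on replicates 3 and 4. Over the whole proteasome, 14 of the 26 probes with a value on both arrays lay at -0.5 or below on both, as did 8 of 31 chaperone probes. Among all members this was 22 of 58, where 14.6% of all probes did so. With replicate 3 turned it was 0 of 58 members, where 0.645% of all probes did so. On replicate 3 alone 39 of 59 members lay that low, where 38.6% of all probes did, and on replicate 4 alone 29 of 68, where 17.2% did.

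Psma1, an alpha ring subunit, had 0.28, 0.22 and -1.25 on replicates 1 to 3 and -0.86, -0.09 and -0.32 on replicates 4 to 6. It was thus low on replicates 3, 4 and 6 and above 0 on replicates 1 and 2. Its estimate was -0.34 ± 0.23 (SE, n = 6; limma adjusted p = 0.921), or -0.09 under the other reading and 0.02 without replicates 3 and 4. Psma4, another alpha subunit, had 0.18, 0.13, -1.12, -0.73, 0.01 and -0.14 on replicates 1 to 6, an estimate of -0.28 ± 0.21 (SE, n = 6), or -0.0076 under the other reading and 0.05 without replicates 3 and 4. The other alpha subunits, Psma2, Psma3, Psma5, Psma6 and Psma7, lay between -1.05 and -0.66 on replicate 3. Psma2 left this course on replicate 4, where it stood at -0.0041 while the other 6 alpha subunits had values from -0.86 to -0.46.

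Among the beta subunits, Psmb4 had -0.0091, -0.11, -1.08, -0.44, 0.02 and -0.31 on replicates 1 to 6. Its estimate of -0.32 ± 0.17 (SE, n = 6) was the one with the smallest p in the beta ring, and it stood at 0.08 under the other reading and -0.10 without replicates 3 and 4. Psmb1 had -0.03, -0.03, -0.96, -0.58, -0.02 and 0.12, an estimate of -0.25 ± 0.17 (SE, n = 6), or 0.09 under the other reading and 0.01 without replicates 3 and 4. Psmb5, which carries the chymotrypsin-like site, had 0.22, 0.21, -0.98, -0.61, 0.0060 and -0.29. Psmb6, which carries the caspase-like site, did not share the low value on replicate 3: it had -0.60, -0.24, 0.02, -0.38, 0.29 and 0.10. Psmb7, with the trypsin-like site, had no value on replicate 3 and stood at -0.65 on replicate 4. Psmb8, Psmb9 and Psmb10 are the interferon-inducible subunits that can replace these in immune cells. Psmb9 had 0.04, -0.05, -0.74, -0.52, 0.19 and -0.02, and Psmb8 had -0.06, 0.13, -0.80, -0.61, 0.18 and 0.14 on 1 probe and no value on replicate 3 on the other, which read -0.43 on replicate 4. Psmb10 had -0.02, 0.20 and -0.12 on replicates 1, 2 and 4 and no value on the others, and on replicate 4 it was the highest of the beta probes.

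**Figure D2:**
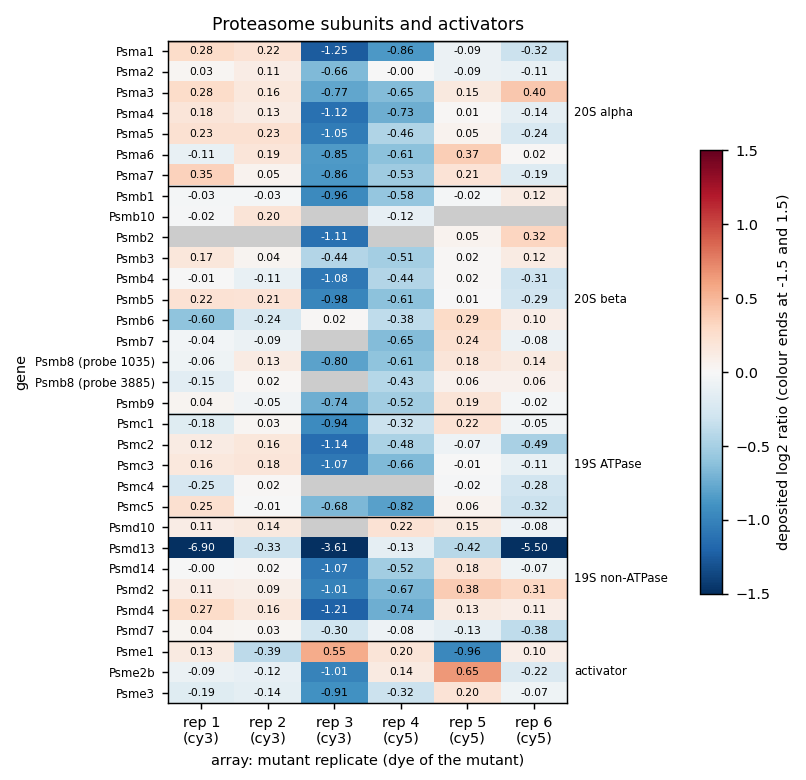
Deposited log2 ratio of every proteasome probe with a value (rows, by part of the complex) on each of the 6 arrays (columns, with the dye of the mutant). Grey cells have no value, red is positive and blue negative, and the columns of replicates 3 and 4 are blue in nearly every row, with Psmb6, Psmd10 and Psme1 among the exceptions.

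The 19S cap had the same course. All 4 ATPase probes with a value on replicate 3 lay between -1.14 and -0.68 there, and between -0.82 and -0.32 on replicate 4. Psmc2 had 0.12, 0.16, -1.14, -0.48, -0.07 and -0.49 on replicates 1 to 6, an estimate of -0.32 ± 0.20 (SE, n = 6), with -0.03 under the other reading and -0.07 without replicates 3 and 4. Psmc5 had 0.25, -0.0096, -0.68, -0.82, 0.06 and -0.32, an estimate of -0.25 ± 0.17 (SE, n = 6), or -0.11 under the other reading and -0.0066 without replicates 3 and 4. Of the non-ATPase subunits, the deubiquitinase gene Psmd14 had -0.0016, 0.02, -1.07, -0.52, 0.18 and -0.07, an estimate of -0.24 ± 0.19 (SE, n = 6), or 0.11 under the other reading and 0.03 without replicates 3 and 4. The ubiquitin receptor gene Psmd4 and the scaffold gene Psmd2 were at -1.21 and -1.01 on replicate 3. Psmd7, the partner of Psmd14, had -0.30 on replicate 3 and -0.08 on replicate 4. Psmd10, whose product (gankyrin) assists assembly of the cap and is absent from the finished proteasome, was at 0.22 on replicate 4 and had no value on replicate 3. Psmc3ip, no subunit, had -1.09 on replicate 3 and -0.13 on replicate 4, so a low value on replicate 3 was not limited to subunits.

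Psmd13, a structural subunit of the cap, had -6.90, -0.33, -3.61, -0.13, -0.42 and -5.50 on replicates 1 to 6. The value on replicate 1 was the lowest of all probes on that array, that on replicate 6 the second lowest, and that on replicate 3 the fifth lowest. The other 3 arrays were all between -0.42 and -0.13, and the 3 low arrays include both dye orientations. It was the only probe in the table at -5 or below on 2 arrays or more, and 7 probes reached that level on any array. Its estimate of -2.81 ± 0.97 (SE, n = 6; limma adjusted p = 0.921) was the lowest of all 4958 probes and did not pass, and it was 0.80 under the other reading and -3.28 without replicates 3 and 4. Of the 57 members with a value on every array it was the 1 with a single sign as deposited. With replicates 1 to 3 turned it had both signs, and the 1 member with a single sign was Cct3. The share of all probes with a single sign is not given here, so these counts do not set either gene apart.

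Psme genes were not alike on replicates 3 and 4. Psme3, a nuclear activator, had -0.19, -0.14, -0.91, -0.32, 0.20 and -0.07, an estimate of -0.24 ± 0.15 (SE, n = 6), or 0.18 under the other reading and -0.05 without replicates 3 and 4. Psme1, an interferon-inducible activator, had 0.13, -0.39, 0.55, 0.20, -0.96 and 0.10. It was thus above 0 on replicates 3 and 4, where the core was low, and lowest on replicate 5. Psme2b, a copy of the activator gene Psme2 with which its probe may share RNA, had -0.09, -0.12, -1.01, 0.14, 0.65 and -0.22. Its estimate was -0.11 ± 0.18 (SE, n = 6), or 0.30 under the other reading and 0.05 without replicates 3 and 4.

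The chaperones divided into probes that followed the course of the proteasome and probes that did not. Hspa9, the mitochondrial Hsp70 (mortalin), had 0.40, 0.26, -1.44, -0.77, 0.15 and 0.09 on replicates 1 to 6, and Hsph1, the Hsp110 nucleotide exchange factor, had 0.40, 0.28, -1.33, -0.81, 0.30 and 0.18. Both were positive on the 4 arrays other than replicates 3 and 4, as was Dnaja1, an Hsp40 partner of cytosolic Hsp70, with 0.37, 0.33, -1.41, -0.78, 0.18 and 0.0080. On replicate 3 these 3 were lower than every proteasome probe except Psmd13. Hspa4, a cytosolic relative of Hsp110, had -0.72 and -0.56 on replicates 3 and 4, on which the proteasome was low. Hspa14, which works at the ribosome, had 0.24, 0.15, -0.60, -0.92, -0.0012 and -0.10 on replicates 1 to 6. Its estimate was -0.20 ± 0.18 (SE, n = 6), or -0.13 under the other reading and 0.07 without replicates 3 and 4.

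Hspa8, the constitutive cytosolic Hsp70 (Hsc70), was measured by 2 probes that disagreed. The probe with the smaller p had -0.57, -0.53, 0.90, 0.57, -0.78 and -0.62 on replicates 1 to 6, low where most chaperones were near or above 0 and high on replicates 3 and 4, where they were low. The other probe had 0.23, 0.02, 0.34, -0.73, -0.06 and 0.11. The estimate of the first was -0.17 ± 0.26 (SE, n = 6; limma adjusted p = 0.921), or -0.10 under the other reading. Without replicates 3 and 4 it was -0.62 ± 0.07 (SE, n = 4, limma adjusted p = 0.148), with an unadjusted p of 0.000422, while the other probe stood at 0.07. On those 4 arrays under the other reading, the first probe stood at only -0.07 (limma unadjusted p = 0.347) and the other at -0.05. Hspa8 has many processed copies in the genome, and which transcripts each probe detects was not tested.

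Other Hsp70 relatives were few or uneven. Hspa2, a testis-enriched Hsp70, had 0.14, 1.20, -0.03, 0.24 and 0.16 on replicates 2 to 6, an estimate of 0.39 ± 0.19 (SE, n = 5), or -0.27 under the other reading. Its value on replicate 3 stood apart, and it could not be fitted without replicates 3 and 4. Hspa4l had -1.47, -0.22, 1.35, -0.21 and 0.57 on replicates 1, 2, 4, 5 and 6. Hspa1a, the stress-inducible Hsp70, whose probe may also detect the nearly identical Hspa1b, had -0.36, -0.23, -0.12 and 0.41 on replicates 1, 2, 5 and 6 and no value on the others. Hsp90b1, the Hsp90 of the endoplasmic reticulum (Grp94), had 0.07, -0.06, 0.68, 0.11, -0.01 and -0.15, an estimate of 0.11 ± 0.14 (SE, n = 6), or -0.12 under the other reading and -0.04 without replicates 3 and 4. Its highest value was that of replicate 3.

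**Figure D3:**
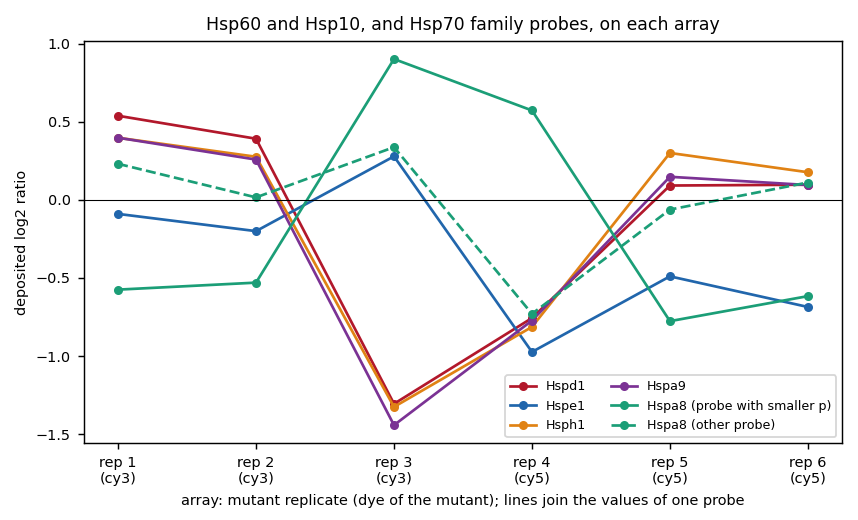
Deposited log2 ratio of Hspd1, Hspe1, Hsph1, Hspa9 and both Hspa8 probes on the 6 arrays (dye of the mutant in brackets). Lines join the values of 1 probe; Hspd1, Hsph1 and Hspa9 lie between -1.44 and -1.31 on replicate 3, while Hspe1 and both Hspa8 probes are above 0 there.

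Hspd1 and Hspe1, which share the promoter printed above and whose products make up one folding chamber, had different ratios. Hspd1 had 0.54, 0.39, -1.31, -0.76, 0.09 and 0.10 on replicates 1 to 6, the course of Hspa9 and Hsph1. Hspe1 had -0.09, -0.20, 0.28, -0.97, -0.49 and -0.69, so that it was negative on 5 of 6 arrays and differed most from Hspd1 on replicate 3. The estimate for Hspe1 was -0.36 ± 0.13 (SE, n = 6; limma adjusted p = 0.921, unadjusted p = 0.0245). It was -0.36 under the other reading and -0.37 without replicates 3 and 4, with limma adjusted p of 0.972 and 0.3. With both changes it stood at -0.22. The Hspe1 values lay around 0 on replicates 1 to 3, from -0.20 to 0.28, and from -0.97 to -0.49 on replicates 4 to 6. Turning the signs of values around 0 changes an estimate little, so the near-equal estimates of both readings are no separate support. Hspd1 stood at -0.16 ± 0.27 (SE, n = 6) with all arrays, at -0.03 under the other reading and at 0.28 ± 0.07 (SE, n = 4; limma adjusted p = 0.3) without replicates 3 and 4, on the other side of 0. The other genes with a heat shock element of 3 units were Hsph1, at -1.33 on replicate 3 and -0.81 on replicate 4, and Dnajb6, an Hsp40 that prevents aggregation, at -0.92 and 0.15.

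Hsp40 estimates were negative for 8 of 17 fitted probes, with a median of 0.01. They were negative for 9 of 17 under the other reading, with a median of -0.0037, and for 4 of 17 without replicates 3 and 4, with a median of 0.11. Dnajb5 had 0.08, 0.33, 0.86, 0.79, -0.06 and 1.39 on replicates 1 to 6, positive on 5 of 6 arrays, and an estimate of 0.57 ± 0.21 (SE, n = 6; limma adjusted p = 0.921, unadjusted p = 0.028). It stood at 0.14 under the other reading and at 0.44 without replicates 3 and 4. Dnajc2, which works at the ribosome, had 0.58, 0.14, 0.21, 0.05 and 0.08 on replicates 1, 2, 4, 5 and 6, all positive, and an estimate of 0.24 ± 0.14 (SE, n = 5), or -0.12 under the other reading and 0.21 without replicates 3 and 4. Dnajb9, a chaperone of the endoplasmic reticulum, had 0.48, 0.32, -0.55, -0.49, 0.20 and 0.33. Dnajb1, a stress-inducible Hsp40, had -0.06, -0.14, -0.84, -0.23, 0.13 and 0.53. Dnajc5, the cysteine string protein of synaptic vesicles, stayed between -0.23 and 0.29 on all 6 arrays.

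In the CCT ring 6 of 8 estimates were negative, with a median of -0.10. Without replicates 3 and 4, 2 of 8 were negative and the median was 0.04, while under the other reading 7 of 8 were negative and the median was -0.15. Tcp1, its first subunit, had 0.57, 0.44, -1.09, -0.71, -0.13 and -0.22 on replicates 1 to 6, an estimate of -0.19 ± 0.23 (SE, n = 6) with all arrays, -0.16 under the other reading and 0.16 without replicates 3 and 4. Cct8 had 0.07, 0.07, -0.68, -0.64, 0.09 and -0.06, an estimate of -0.19 ± 0.16 (SE, n = 6), or -0.01 under the other reading and 0.04 without replicates 3 and 4. Cct5 had 0.24, 0.16, -0.48, -0.75, -0.0055 and -0.15, an estimate of -0.16 ± 0.16 (SE, n = 6), or -0.14 under the other reading and 0.06 without replicates 3 and 4. Subunits of the same ring did not move alike: Cct3 was at 0.53 on replicate 3, Cct4 at 0.03 and 0.0058 on replicates 3 and 4, and Cct6b, the testis form of its subunit, at 0.61 on replicate 4. Of the small heat shock proteins Hspb1 (Hsp27) had 0.09, -0.09, -0.10, 0.16 and 0.08 on replicates 1, 2, 4, 5 and 6. Its estimate was 0.02 ± 0.13 (SE, n = 5), or 0.02 under the other reading and 0.06 without replicates 3 and 4. Hspb8 had 0.12, 0.25, -0.47 and -0.75 on replicates 1, 2, 5 and 6, so that the values differed in sign between the dye orientations. Its estimate was -0.21 ± 0.15 (SE, n = 4) as deposited and -0.40 under the other reading (unadjusted p = 0.0495).

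**Figure D4:**
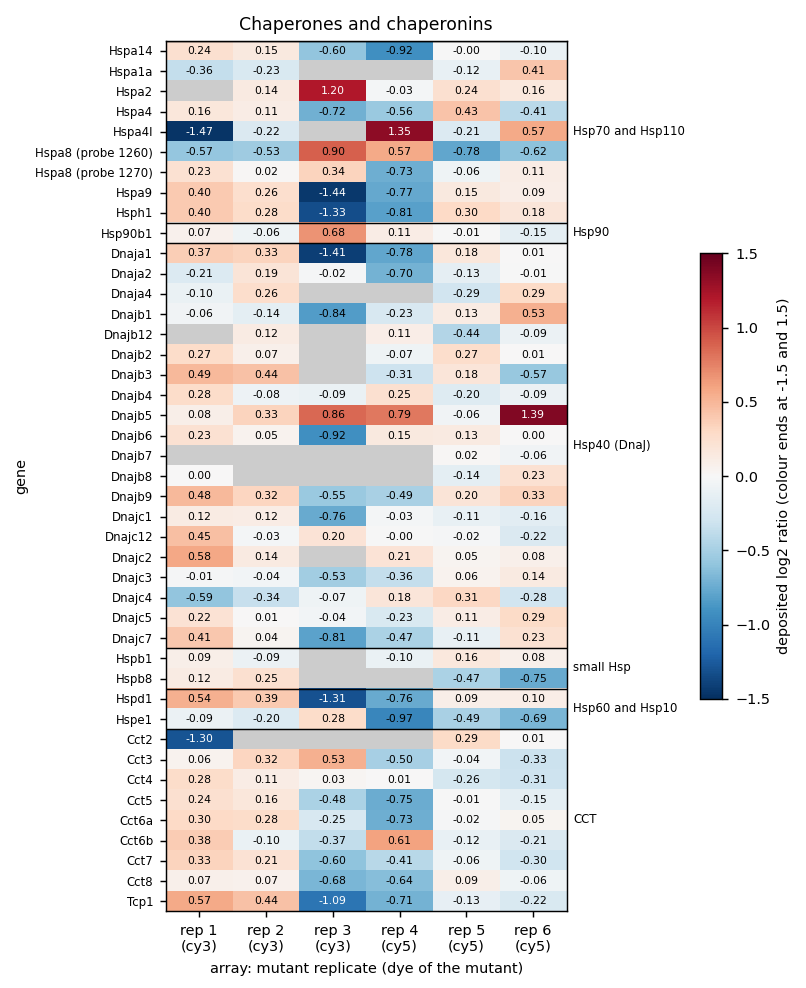
Deposited log2 ratio of every chaperone probe with a value (rows, by family) on each of the 6 arrays (columns, with the dye of the mutant). Grey cells have no value, red is positive and blue negative; Hspa9, Hsph1, Dnaja1, Hspd1 and Tcp1 are blue on replicates 3 and 4, while the first Hspa8 probe and Dnajb5 are red there.

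The calls at an unadjusted p depended on the arrays used. Under the other reading 4 members had an unadjusted p under 0.05, Cct3, Hspe1, Hspa4l and Hspb8, where 4.6% of all probes did. Without replicates 3 and 4 there were 9 of 69, where 13.6% of 4728 probes did, and 0 passed the adjustment, where 0.0212% of all probes did. These were the first Hspa8 probe and Hspe1 with negative estimates and Dnajb9 at 0.33, Hsph1 at 0.29, Hspd1 at 0.28, Psma3 at 0.24, Hspa9 at 0.22, Psmd2 at 0.22 and Dnaja1 at 0.22 with positive ones. The 7 with positive estimates were each positive on all 4 of these arrays and negative on replicates 3 and 4, as deposited. They were picked by a small p on these 4 arrays, so their shared sign there is no separate result. Over all probes, too, replicates 3 and 4 ran against these arrays as deposited, with Pearson's r from -0.37 to -0.08. The share of all probes with the same pattern is not given here. Under the other reading the same 4 arrays gave negative estimates for Hspd1 (-0.19), Dnaja1 (-0.13), Hspa9 (-0.10), Dnajb9 (-0.07) and Hsph1 (-0.05). Psma3 (0.03) and Psmd2 (0.13) stayed above 0. With arrays weighted by how well they follow the fit, 7 members had an unadjusted p under 0.05, where 12.1% of all probes did, and 0 passed the adjustment, where 0.0403% did. The weights were 0.10 and 0.31 for replicates 3 and 4, and 1.40 to 4.01 for the others. This setting is therefore close to leaving replicates 3 and 4 out and is no separate check.

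**Figure D5:**
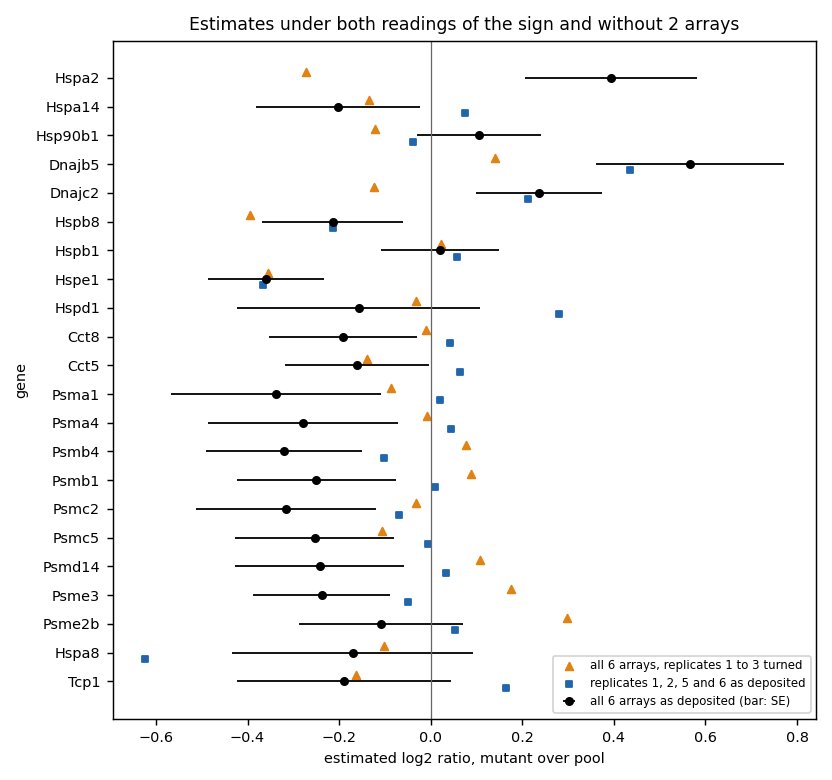
Estimated log2 ratio of mutant over pool for the named genes other than Psmd13 (rows). Black points with SE bars use all 6 arrays as deposited, orange triangles the other reading of the sign, and blue squares replicates 1, 2, 5 and 6. The 3 estimates for Hspe1 lie between -0.37 and -0.36, while those for Hspd1 lie between -0.16 and 0.28. The Hspe1 values of replicates 1 to 3 lay around 0, so turning their signs changes its estimate little.

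Partners of these proteins, from lists chosen with earlier results known, are given next, where 56.7% of all probes had an estimate below 0 as deposited, 47% under the other reading and 37.4% without replicates 3 and 4. Of 51 genes of ubiquitin transfer and proteasome partners 22 had a probe, with medians of -0.78 and -0.44 on replicates 3 and 4 and 20 of 22 estimates below 0. Under the other reading 8 of 22 were below 0, with a median of 0.02, and without replicates 3 and 4 only 2 of 22 were, with a median of 0.08. The ubiquitin-conjugating enzyme gene Ube2a stood at -0.30, or 0.07 under the other reading and -0.04 without replicates 3 and 4. Uchl3, a ubiquitin hydrolase gene, stood at -0.25, or 0.0096 and 0.01 in the same order. Of 34 co-chaperone genes 14 had a probe, with medians of -0.73 and -0.34 on these arrays and 11 of 13 estimates below 0. Under the other reading 7 of 13 were below 0, with a median of -0.0095, and without replicates 3 and 4 there were 4 of 13, with a median of 0.06. The Hsp90 partners Cdc37 and Ptges3 stood at -0.24 each, at 0.21 and -0.17 under the other reading, and at 0.01 and 0.02 without replicates 3 and 4. Stub1 stood at -0.23, or 0.10 and -0.07 in the same order, and Bag1 at -0.24, or 0.23 and -0.02. The 15 genes of folding in the endoplasmic reticulum with a probe had medians of 0.45 and -0.02 there and 5 of 15 estimates below 0. Under the other reading 10 of 15 were below 0, with a median of -0.13, and without replicates 3 and 4 there were 10 of 14, with a median of -0.04. The stress factor gene Xbp1 stood at 0.29, or -0.33 under the other reading and 0.06 without replicates 3 and 4. Calnexin, Canx, stood at 0.21, or -0.15 and -0.03 in the same order. Selenof stood at -0.23, or 0.16 and -0.04, and Pdia4 at 0.24, or -0.0090 and 0.49. Mitochondrial proteases and chaperones had 7 genes with a probe and medians of -0.67 and -0.15 on replicates 3 and 4. Of their estimates 5 of 7 were below 0, against 2 of 7 under the other reading and 4 of 7 without replicates 3 and 4. Among stress transcription factors 10 of 12 had a probe, and 2 of 8 estimates were below 0, against 6 of 8 under the other reading and 2 of 8 without replicates 3 and 4. Nfe2l1 had 0.33, 0.47, 1.01, 0.28, -0.06 and 0.79 on replicates 1 to 6, and an estimate of 0.47 ± 0.16 (SE, n = 6; limma adjusted p = 0.921). It stood at -0.13 under the other reading and at 0.38 without replicates 3 and 4. No gene of these lists passed over all probes tested.

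The table holds ratios only, so that the level of a marker, and hence the tissue itself, could not be checked. Markers of other cell types with a probe were 4 of 6 for the ganglionic eminence, 2 of 6 for red blood cells, 5 of 6 for meninges and vessels and 5 of 6 for microglia, besides 8 of 10 for neocortex. On replicates 3 and 4 their medians were 0.35 and -0.59 for the ganglionic eminence, -0.09 and -0.06 for red blood cells, 0.73 and 0.03 for meninges and vessels, -0.50 and 1.24 for microglia and -0.35 and 0.15 for neocortex. Few probes stand behind these medians, 2 and 3 for meninges and vessels and 3 on each array for microglia. The microglial genes were not alike there: C1qb stood at 5.06 and 2.41, Aif1 at -0.50 and -0.27, C1qc at -1.14 on replicate 3 and C1qa at 1.24 on replicate 4. The part of these genes in the low proteasome and chaperone ratios of both arrays was not tested.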

How the data were processed

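The deposited values are 1 log ratio per probe and array, made by the authors and read here as log2, per the values in the deposited table. For scanner, background correction, normalization, log base and direction, the method is not stated in these sources. Array means lay near 0, and array medians between -0.23 and 0.05. Probes were named through the platform annotation, and all 76 member genes matched RefSeq by gene identifier, with 0 symbols differing. In R 4.3.3, limma 3.58.1 (lmFit, eBayes) was run on probes that had 2 or more values per dye orientation. The intercept, the mean of the 2 orientation means, is the mutant effect, and dye orientation is a term. Tests were two-sided, with Benjamini-Hochberg adjustment over all 4958 probes and a threshold of 0.05. With this term, the estimate under the other reading of the sign is the halved difference between the orientation means. The fit was tested on simulated data. The number of arrays limits the precision, and no intensities were used.

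Members, gene lists and the alternative without replicates 3 and 4 were chosen with earlier results of these data known. Values on every array and an estimate are given for the 2 genes with the smallest p in each family and for Hspa8, Hspd1, Hspe1 and Tcp1. Other members, some also with values on every array, were chosen after their values were seen. For a gene with 2 probes, the estimate is that of the probe with the smaller p. The targeted gene is not reported here.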

Additional observations from a re-analysis of the deposited data

Results flagged for a closer look

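Of 35 series of values examined, 3 had 1 array far from the others, by the gap to its nearest neighbour as a share of the whole range. Chance gives about 1 in 20 where all arrays have the same spread. These arrays do not, so that rate does not apply to them. Hspa2 stood at 1.20 on replicate 3, a gap of 0.775 of the range of its 5 values. Hsp90b1, the single Hsp90 probe with values, stood at 0.68 on replicate 3, a gap of 0.691 of the range of 6 values. The array medians of the 3 activator probes had -0.91 on replicate 3, a gap of 0.69 of their range. All of these are values of replicate 3, whose standard deviation over all probes was 1.09, and the part of that array in them was not tested. Psmd13, with 3 very low arrays, does not have a single array apart.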

How the results depend on the processing

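No member passed under any alternative run. Over all probes 0 passed as reported, 2 with array weights and 1 without replicates 3 and 4. Members at an unadjusted p under 0.05 numbered 3 of 70 as reported, where 1.77% of all probes did. There were 7 of 70 with array weights, where 12.1% did, and 9 of 69 without replicates 3 and 4, where 13.6% did. Without them under the other reading (added after the data were seen) there were 8 of 69, where 1107 of 4728 probes did. When 1 replicate was left out there were 0 to 3 members. Without replicate 3 it was 1 of 69, where 154 of 4729 probes did. Without replicate 4 it was 1 of 70, where 94 of 4957 did. Without replicate 6 it was 0 of 66, where 49 of 4317 did. Of 352 estimates for the 23 named genes under alternatives, 41 had the other sign and 0 passed. Some alternatives change only the test or the set of probes and leave an estimate as it was. The share of 41 in 352 therefore does not measure how stable the signs are. Without replicates 3 and 4 the sign turned for 11 of 22 named genes, and under the other reading for 9 of 23.

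Under the other reading the sign turned for Hspa2 (-0.27), Hsp90b1 (-0.12), Dnajc2 (-0.12), Psmb4 (0.076), Psmb1 (0.088), Psmd13 (0.80), Psmd14 (0.11), Psme3 (0.18) and Psme2b (0.30). Without replicates 3 and 4 it turned for Hspa14 (0.074), Hsp90b1 (-0.038), Hspd1 (0.28), Cct8 (0.042), Cct5 (0.063), Psma1 (0.021), Psma4 (0.045), Psmb1 (0.010), Psmd14 (0.033), Psme2b (0.054) and Tcp1 (0.16). With both changes it turned for Hsp90b1 (-0.041), Dnajc2 (-0.15), Psmb1 (0.038), Psmd13 (0.33), Psmd14 (0.024), Psme3 (0.12) and Psme2b (0.16). Array weights, which were lowest for replicates 3 and 4, turned Hspa14 (0.024), Hsp90b1 (-0.041), Hspd1 (0.23), Cct8 (0.0030), Cct5 (0.020) and Tcp1 (0.12). Scaling the arrays turned Hspd1 (0.082), Psme2b (0.00080) and Tcp1 (0.0077). Leaving out 1 replicate gave ranges across 0 for Hsp90b1 (-0.0065 to 0.18), Hspb1 (-0.0073 to 0.057), Hspd1 (-0.32 to 0.14), Psme2b (-0.23 to 0.041) and Tcp1 (-0.34 to 0.076); the turn came without replicate 3, and for Hspb1 without replicate 5. The median over proteasome probes ran from -0.30 to -0.06 and that over chaperones from -0.17 to 0.02. The cause of these turns was not tested. No paired analysis was possible because every array sets 1 mutant against the same pool.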
